A study of Mus musculus with 2 samples.

Results

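The genes described here are the enzymes that add methyl groups to histones or take them off, chosen by the start of their symbols (Kdm, Kmt2, Kmt5, Setd, Nsd, Ezh, Ehmt, Suv39h, Dot1l or Prmt). In the mouse annotation 55 of 21951 protein-coding genes carried such a symbol. Of these, 52 had at least 1 splice junction in the data that could be given their name, and 50 had at least 20 reads over both libraries, the minimum for a ratio. 1 of the 50, Nsdhl, matches by its letters only: it encodes a sterol dehydrogenase of cholesterol synthesis and is kept because the rule takes it.

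The stimulated cells were splenic CD4+ T cells, the helper lymphocytes, of male C57BL/6JJcl mice, held for 4 h on plates coated with antibodies against the T cell receptor chain CD3e and the costimulatory receptor CD28, each at 2 ug/ml. The mock cells were handled in the same way with no antibody. Both came from magnetically enriched cells of 4 pooled spleens, with no other allele or agent named, and 1 library of total RNA was sequenced per group. By its title, the study asked what happens early in T cell activation. There was no replicate check: each difference is one between the stimulated library and the mock library, and no p-value is given.

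Methyl groups on histone tails work as marks that other proteins read. Methylation of H3 lysine 4, 36 and 79 is found at active promoters, enhancers and transcribed genes, that of H3 lysine 9 and 27 and H4 lysine 20 mostly at silent or compacted chromatin, and arginine methylation at both. Lysine methylation is written by SET domain enzymes and by DOT1L and erased by amine oxidases or by jumonji (JmjC) enzymes, while arginine methylation is written by the PRMT family. In T cells such marks hold cytokine and lineage genes silent or poised, and several of these enzymes are known to steer the choice between helper fates.

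What was counted in each library is reads spanning an exon-exon junction. The stimulated library held 1341197 such reads and the mock library 1147232, and the 50 measured genes had 39 to 2854 reads over both, with a median of 380.5. A ratio is the stimulated over the mock value after both were set per 1000000 junction reads of their library, and its interval is an exact (Clopper-Pearson) 95% interval that covers counting error only. A gene was called higher or lower when it had at least 20 reads, differed at least 2-fold and had an interval that excluded 1. All 10 genes listed as markers of CD4 T cells, most of them shared with other T cells, were present. They summed to 8050 reads in the stimulated library and 8751 in the mock library, but single genes went both ways. Cd4 had 285 stimulated reads and 650 mock reads and Tcf7 419 and 3717, while Zap70 had 1557 and 316 and Cd5 1743 and 766. The B cell markers, 8 of 8 present, summed to 167 and 197 reads, those of myeloid cells, with Itgam at 0 in both, to 66 and 52, and those of CD8 T cells, with Cd8a at 0 in both, to 5 and 16 (stimulated, then mock). NK markers had 38 stimulated reads and 7 mock reads, of which the T-box factor Eomes gave 36 and 7, and Ncr1 and Klrb1c were at 0. The 4 erythroid markers had 168 stimulated reads and 78 mock reads, of which Hbb-bs, a globin, gave 151 and 71, and Hba-a1 was at 0. A marker at 0 in both libraries had no junction that took its name, so reads of it may have been missed. The part of the other cell types in the values below was not tested. In such bulk libraries fewer cells of a type and less RNA per cell cannot be told apart.

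Of the 50 measured genes, 9 (18.0%) were called higher in the stimulated library, where 17.1% of all 7200 measured genes were. A further 16 (32.0%) were called lower, where 25.1% of all measured genes were. The share called higher was thus close to that of all genes, and the share called lower was the larger of its pair. The median log2 ratio of the 50 was −0.52, against −0.21 for all measured genes. In ratio, 35 of the 50 were below 1 and 15 above, where 4096 of the 7200 measured genes were below and 3104 above. Of the 25 genes that were not called, 4 had an interval wholly above 1, 13 wholly below, and 8 had one that held 1. These 8 were the only ones of the 50 whose interval held 1. Over all 7200 measured genes, called or not, 65.2% of intervals excluded 1. That share includes called genes, whose intervals exclude 1 by the rule, so it cannot be set beside the 25 alone. Counts of ratios and intervals on either side of 1 depend on how the libraries are scaled.

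Counts of calls varied among families. Of 6 measured arginine methyltransferases 4 were higher and 2 lower. Of 7 H3K4 methyltransferases 5 were lower and none was higher, and the median of their log2 ratios was −1.43. The 24 lysine methyltransferases as a whole had 2 higher, 9 lower and 13 neither. Among the 16 demethylases 2 were higher, 3 lower and 11 neither, and the largest ratio of all 50 belonged to 1 of them, Kdm6b.

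**Figure D1:**
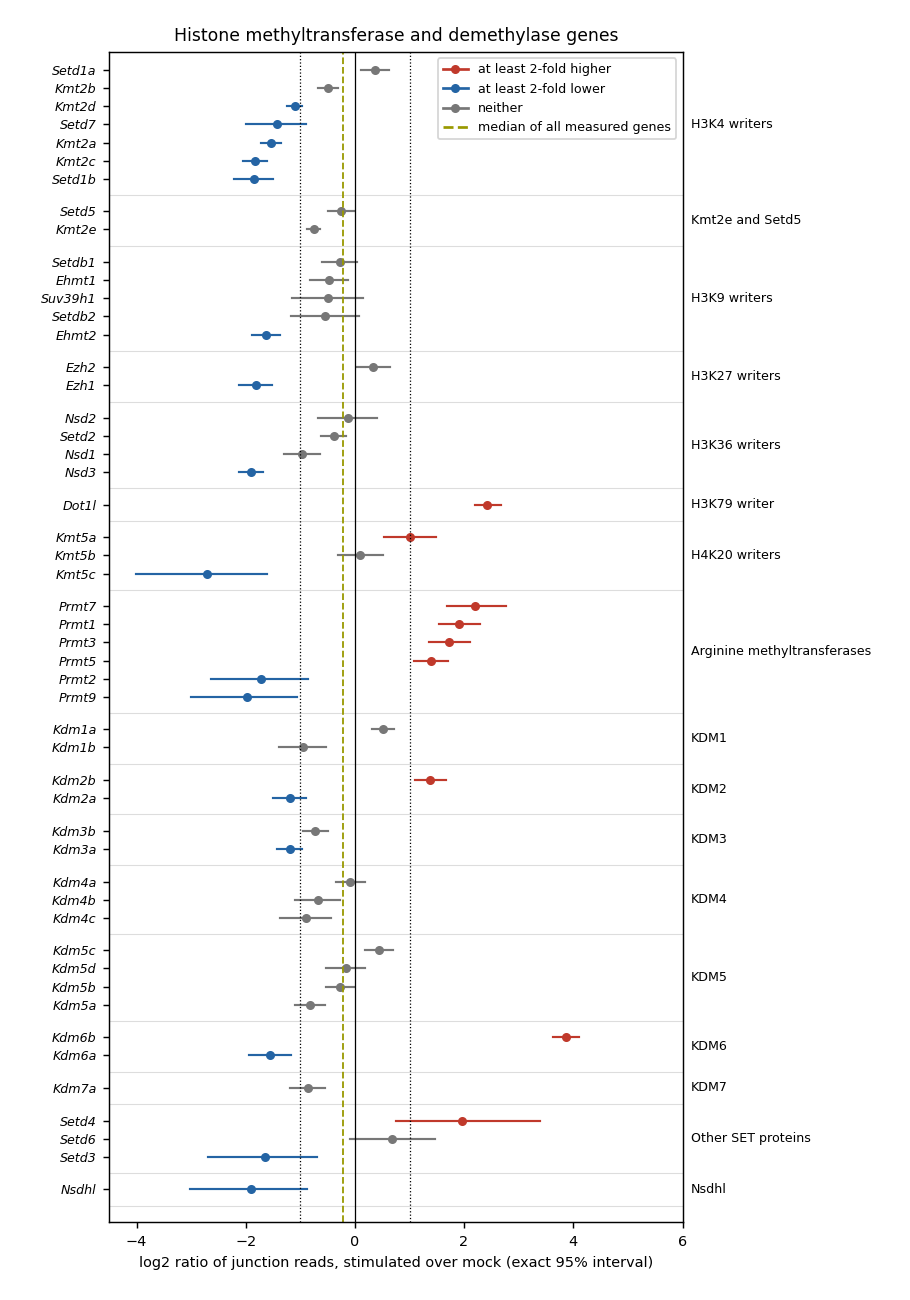
Log2 ratio of junction reads, stimulated over mock, of the 50 measured genes (points), with exact 95% intervals for counting error (lines), grouped by the mark or family. The dashed line is the median of all measured genes and the dotted lines mark a 2-fold difference. Kdm6b, Dot1l and the PRMT genes Prmt7, Prmt1, Prmt3 and Prmt5 stand at the right and most H3K4 enzymes at the left.

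To show what was counted, the coding exon join with the most reads is printed for the 4 genes with the highest and the 4 with the lowest ratio, among members with at least 100 reads and a histone as best known substrate. Each holds the last 30 coding bases of the upstream exon in lower case and the first 30 of the downstream exon in capitals, 5′ to 3′, as the GENCODE M21 transcript gives them. A ninth line gives the join of Ezh2 that is most like that of Ezh1, its paralog: the 60 bases differ at 9 positions, so a read across this join tells the genes apart.
Kdm6b: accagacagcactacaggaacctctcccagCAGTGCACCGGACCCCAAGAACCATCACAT
Dot1l: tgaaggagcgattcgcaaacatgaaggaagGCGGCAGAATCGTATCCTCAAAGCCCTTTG
Prmt7: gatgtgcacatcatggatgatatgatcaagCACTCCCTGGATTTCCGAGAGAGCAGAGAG
Prmt1: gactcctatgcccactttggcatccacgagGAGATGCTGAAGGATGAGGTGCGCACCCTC
Nsd3: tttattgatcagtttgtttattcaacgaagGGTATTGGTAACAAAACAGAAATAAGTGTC
Setd1b: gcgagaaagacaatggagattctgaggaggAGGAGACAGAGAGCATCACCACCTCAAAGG
Kmt2c: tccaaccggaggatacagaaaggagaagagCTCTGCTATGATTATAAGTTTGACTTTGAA
Ezh1: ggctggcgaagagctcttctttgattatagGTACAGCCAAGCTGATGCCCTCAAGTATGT
Ezh2: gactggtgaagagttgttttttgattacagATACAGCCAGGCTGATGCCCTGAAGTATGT

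The first 4 joins were the more read in the stimulated library. The Kdm6b join, around an intron at chr11:69215333-69215418 (minus strand, mm9), had 369 stimulated reads and 16 mock reads. The Dot1l join at chr10:80241088-80243587 (plus) had 98 and 24. The Prmt7 join at chr8:108772324-108774207 (plus) had 50 stimulated and 8 mock reads, and the Prmt1 join at chr7:52237264-52238855 (minus) 78 and 19. The other joins were the more read in the mock library, apart from that of Ezh2. The Nsd3 join at chr8:26773729-26776501 (plus) had 32 stimulated reads and 115 mock reads. The Setd1b join at chr5:123607877-123608401 (plus) had 13 and 47, and the Kmt2c join at chr5:24779577-24781445 (minus) 15 and 45. The paired joins went apart: that of Ezh1 at chr11:101054314-101054532 (minus) had 23 stimulated reads and 71 mock reads, while that of Ezh2 at chr6:47480601-47481739 (minus) had 9 stimulated reads and 0 mock reads.

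Kdm6b encodes JMJD3, which removes methyl groups from H3 lysine 27 and is known as a gene that many immune stimuli switch on. It had 2696 reads in the stimulated library and 158 in the mock library, which is 2010 and 138 reads per 1000000. The ratio was 14.6 (12.4 to 17.2), the 81st highest of 7200 genes. All 19 of its junctions with at least 10 reads were higher in the stimulated library, by 1.67 to 6.23 on the log2 scale. Per junction it had 100.5 reads per 1000000 in stimulated cells, the highest level of the 50 genes there, and 6.89 in mock cells. Kdm6b alone made up 2696 of the 13454 stimulated reads of all members and 158 of the 12710 mock reads. All members together had 10031 reads per 1000000 in the stimulated library and 11079 in the mock library, a ratio of 0.905 (0.884 to 0.928). Without Kdm6b they had 8021 and 10941, and the ratio was 0.733 (0.714 to 0.752).

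Kdm6a, or UTX, acts on the same mark and sits in the H3K4 complexes of Kmt2c and Kmt2d. It moved the other way, with 80 stimulated reads and 201 mock reads, 2.94-fold lower (2.26 to 3.86). Of its 12 junctions with at least 10 reads 11 were lower in the stimulated library. Per junction, Kdm6a had 2.21 reads per 1000000 in stimulated cells and 6.49 in mock cells, so the levels of Kdm6a and Kdm6b lay close together in mock cells and far apart in stimulated cells.

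**Figure D2:**
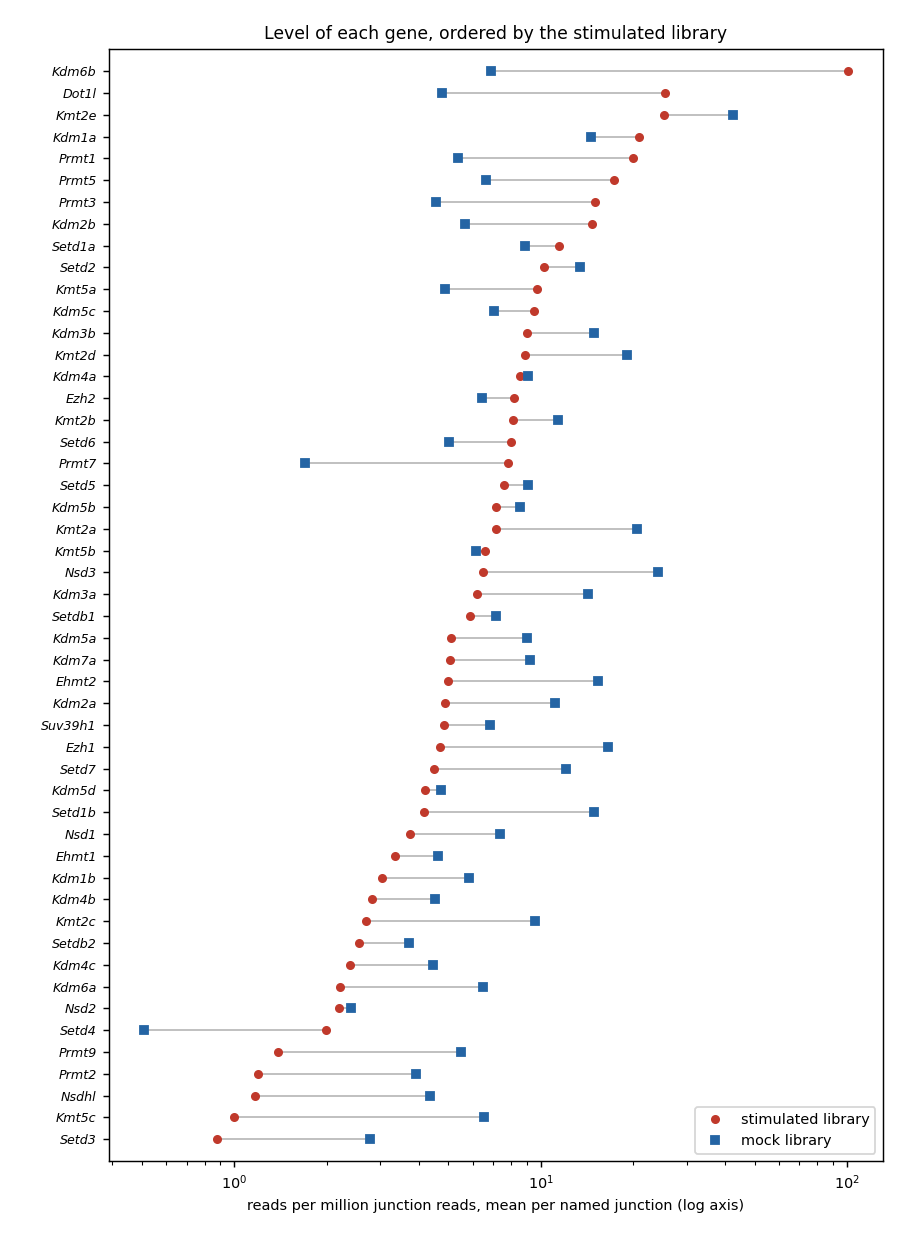
Level of each measured gene as reads per 1000000 junction reads per named junction (log axis), in the stimulated library (circles) and the mock library (squares). Kdm6b tops the stimulated order with 100.5 and Kmt2e the mock order with 42.6.

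The enzymes that write H3 lysine 27 methylation, Ezh1 and Ezh2, are alternative catalytic subunits of PRC2, and Ezh2 is the one known from dividing cells. Ezh1 had 126 stimulated reads and 380 mock reads and was 3.53-fold lower (2.88 to 4.35). Ezh2 had 241 and 163, a ratio of 1.26 (1.03 to 1.55), above 1 but under the 2-fold limit. The intervals of both genes lay far apart, on opposite sides of 1. Of the other PRC2 subunits and cofactors listed, 8 were measured, and 2 were higher, 1 lower and 5 neither. Beside this and each later list of partners stand the shares of all measured genes, 17.1% higher and 25.1% lower. Rbbp7, a histone-binding subunit, had 390 stimulated and 123 mock reads, a ratio of 2.71. Phf1, which guides PRC2 to chromatin, had 76 and 206 and was 3.17-fold lower. Rbbp4, the paralog of Rbbp7 and the most read of the list, had 435 and 430, a ratio of 0.865. Of the 12 measured genes of PRC1, the complex that ubiquitinates H2A, 2 were higher and 5 lower. Its extremes were the ring finger subunit Bmi1 with 71 stimulated and 13 mock reads, a ratio of 4.67, and Cbx7, which binds methylated H3 lysine 27, with 46 and 136, 3.46-fold lower.

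Dot1l, the enzyme known to methylate H3 lysine 79 and to lack a SET domain, was the second highest member by ratio. It had 1062 reads in the stimulated library and 169 in the mock library, 792 and 147 per 1000000, a ratio of 5.38 (4.57 to 6.36). All 25 of its junctions with at least 10 reads were higher in the stimulated library, with log2 ratios of 1.48 to 4.94. Its junctions ran along chr10 from 80218270 to 80256251 in mm9. Of the 9 measured partners from elongation complexes, none was called higher and 2 were lower, where 17.1% and 25.1% of all measured genes were. The elongation factor Ell2 had the highest ratio, 1.94, and Aff3, a scaffold of such complexes, the lowest, with 45 stimulated and 249 mock reads, 6.47-fold lower. Aff1, with the most reads of the list, had 423 and 456.

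**Figure D3:**
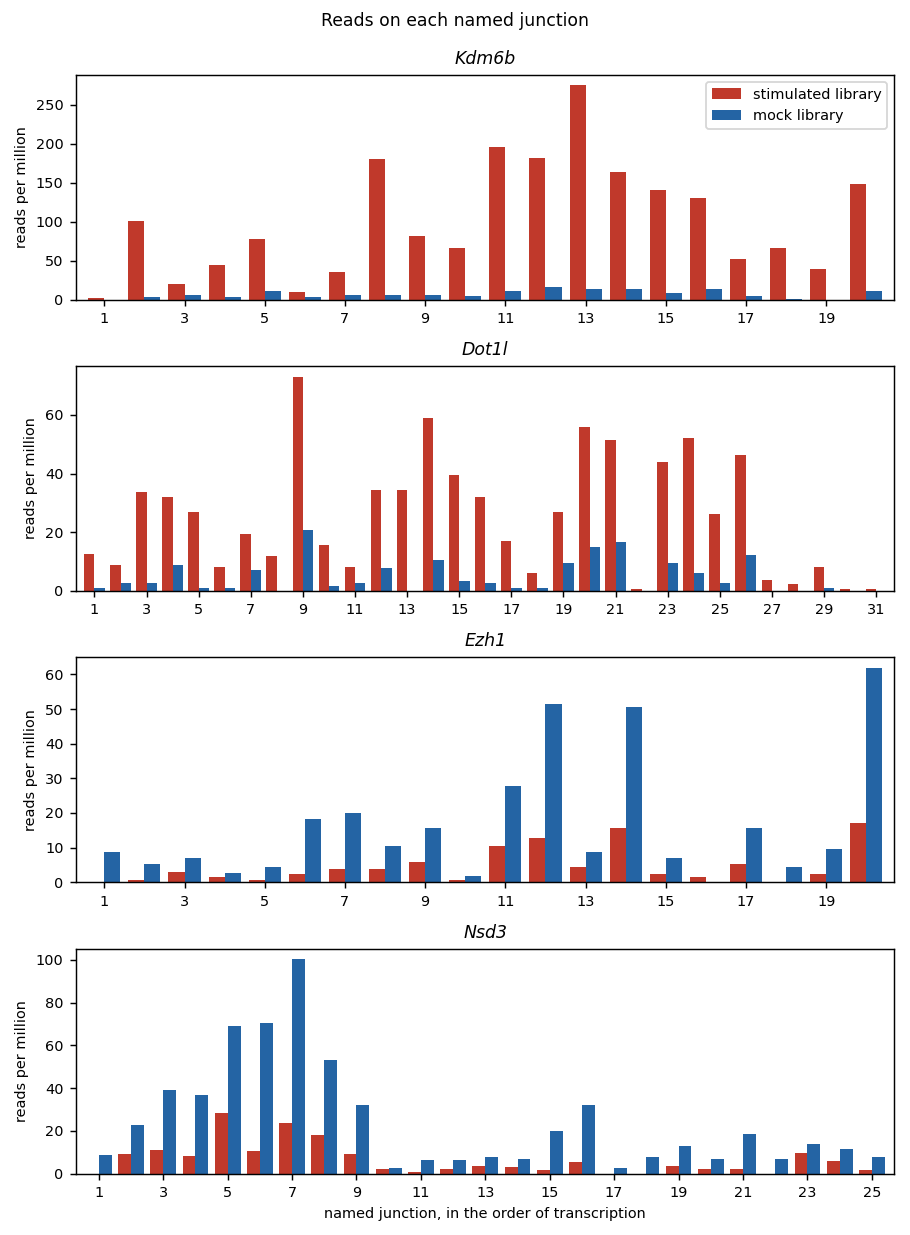
Reads per 1000000 on each named junction of Kdm6b, Dot1l, Ezh1 and Nsd3, numbered in the order of transcription, in the stimulated library (left bar of each pair) and the mock library (right bar). Vertical scales differ between genes. Stimulated bars lead along Kdm6b and Dot1l and mock bars along Ezh1 and Nsd3, and the Nsd3 bars are tall over the first 9 junctions and short after them.

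The H3K4 methyltransferases are the catalytic subunits of COMPASS-like complexes, plus the smaller Setd7, which adds a single methyl group and also modifies other proteins. Kmt2a and Kmt2b (MLL1 and the closely related MLL2) act mainly at promoters, and Kmt2c and Kmt2d at enhancers. Kmt2a had 354 stimulated reads and 875 mock reads, 2.89-fold lower (2.55 to 3.28), and all 28 of its junctions with at least 10 reads were lower. Kmt2c had 217 and 659, 3.55-fold lower (3.04 to 4.16), and Kmt2d 658 and 1211, 2.15-fold lower (1.96 to 2.37). Kmt2b stood apart from these with 413 and 497 reads, a ratio of 0.711 (0.622 to 0.812), whose interval did not overlap those of the other 3. The call of Kmt2d was lost when the trimmed mean of M values (TMM) or the median of ratios set the scale of the libraries.

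The SET1 pair split in the same manner. Setd1b had 89 stimulated reads and 275 mock reads, 3.61-fold lower (2.83 to 4.64), with all 12 junctions of at least 10 reads lower. Setd1a had 308 and 204, a ratio of 1.29 (1.08 to 1.55), but 12 of its 20 named junctions also fit Gm49388, a gene annotated over it, and without these it had 87 and 71 reads. Setd7 had 42 stimulated reads and 97 mock reads and was 2.70-fold lower (1.86 to 3.98). Of 11 measured genes of the shared COMPASS core and cofactors, 1 was higher, 2 were lower and 8 were neither. The one higher was Wdr5, a core scaffold, with 282 stimulated reads and 84 mock reads, a ratio of 2.87. Dpy30, another core subunit, had the lowest ratio, 2.60-fold lower, and Hcfc1, a cofactor with the most reads, had 555 and 436, a ratio of 1.09.

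Kmt2e (MLL5) and Setd5 carry a related SET domain whose own activity is disputed. Kmt2e had 983 reads in the stimulated library and 1418 in the mock library, a ratio of 0.593 (0.546 to 0.644). Its level per junction in mock cells, 42.6 per 1000000, was the highest of the 50 genes, and in stimulated cells it was 25.3, about that of Dot1l (25.5). Setd5 had 286 and 292 reads, a ratio of 0.838.

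Among the H3K9 methyltransferases only Ehmt2 was called. Ehmt2 and Ehmt1 encode G9a and GLP, which act as a pair. Ehmt2 had 180 stimulated reads and 476 mock reads, 3.09-fold lower (2.60 to 3.69), while Ehmt1 had 130 and 154, a ratio of 0.722 with an interval up to 0.918. Setdb1, which silences repeats with the corepressor Trim28, had 158 and 164 reads, a ratio of 0.824, and its relative Setdb2 had 41 and 51, a ratio of 0.688. Suv39h1, an enzyme of pericentric heterochromatin, had 39 and 47 reads and a ratio of 0.710, and the intervals of these 3 genes held 1. Suv39h2 had 11 stimulated reads and 2 mock reads, under the minimum. Of 9 measured partners of this group 1 was higher, Cbx5 (HP1 alpha, a reader of the mark), with 23 and 8 reads and a ratio of 2.46. Trim28, the most read, had 565 and 350, a ratio of 1.38, and the lowest was Atf7ip, a partner of Setdb1, with 0.807.

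The H3K36 methyltransferases comprise Setd2, which trimethylates along transcribed genes, and the 3 NSD enzymes, which dimethylate. Nsd3 had 217 stimulated reads and 692 mock reads and was 3.73-fold lower (3.20 to 4.36). Nsd1 had 126 and 211, a ratio of 0.511 (0.406 to 0.640), just outside the 2-fold limit. Nsd2 had 62 and 58, a ratio of 0.914, and Setd2 had 288 and 323, a ratio of 0.763 (0.648 to 0.897). The Nsd3 interval thus lay below those of the other 3.

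Nsd3 is known to give a full-length enzyme and a short form without the SET domain, with coding sequences of 4338 and 1965 bases in the annotation. Its junctions were split by form after their values were seen. The 8 junctions found in both transcript kinds had 158 stimulated reads and 486 mock reads, a ratio of 0.278 (0.231 to 0.333). The 15 junctions of full-length transcripts alone had 56 and 193, a ratio of 0.248 (0.181 to 0.336), and the 2 of short transcripts alone had 3 and 13. Both kinds of junction were thus lower by a like amount, with overlapping intervals. Per junction, the level of the full-length part was 18.9% of that of the shared part in the stimulated library and 21.2% in the mock library. After scaling by total junction reads, the shared part stood at 14.7 per junction in the stimulated library and 53.0 in the mock library. The full-length part stood at 2.78 and 11.2, and the short part, from few reads, at 1.12 and 5.67. Per junction, the short part was thus below the full-length part in both libraries. How the shared level divides between the forms was not tested.

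Of the H4K20 methyltransferases, Kmt5a (SET8) adds the first methyl group and is needed in dividing cells, and Kmt5b and Kmt5c add more. Kmt5a had 131 stimulated reads and 56 mock reads, a ratio of 2.00 (1.45 to 2.79), just inside the limit, and this call was lost under 3 of the other ways to value a gene. Kmt5b had 115 and 92, a ratio of 1.07. Kmt5c had 8 and 45 and was 6.58-fold lower (3.07 to 16.2), the lowest ratio of the 50 genes. The 3 genes thus covered the call in each direction and none.

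Every measured arginine methyltransferase was called, 4 higher and 2 lower. Prmt1, which makes most of the asymmetric dimethylarginine in cells, had 323 stimulated reads and 74 mock reads, a ratio of 3.73 (2.89 to 4.87). Prmt3, known for methylating a ribosomal protein, had 282 and 73, a ratio of 3.30 (2.55 to 4.34). Prmt5, the main source of symmetric dimethylarginine, had 349 and 114, a ratio of 2.62 (2.11 to 3.26). Prmt7, which makes monomethylarginine, had 189 and 35, a ratio of 4.62 (3.21 to 6.83). All junctions with at least 10 reads of these 4 genes were higher in the stimulated library. Prmt2, a weak enzyme and coactivator, had 16 stimulated reads and 45 mock reads, 3.29-fold lower (1.82 to 6.23), and Prmt9, which methylates a splicing factor, had 13 and 44, 3.96-fold lower (2.09 to 8.01). The 4 higher genes were also those with the more reads over both libraries, a sum that the stimulated reads raise. In the mock library alone Prmt7, with 35 reads, had fewer than Prmt2 with 45 and Prmt9 with 44. Prmt6 and Prmt8 had no named junction, and Prmt6 has a single intron, which cannot be named by spacing.

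Of 6 measured partners and relatives of this family 2 were higher and none lower. Carm1, a coactivator that is PRMT4 by another name, had 277 stimulated reads and 88 mock reads, a ratio of 2.69. Clns1a, which presents substrates to PRMT5, had 149 and 45, a ratio of 2.83, the highest of the list. Riok1, another PRMT5 adaptor, had 371 and 209, a ratio of 1.52, and Tdrd3, a reader of methylarginine, had the lowest ratio, 0.501.

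The stretch before the transcription start is shown for Prmt1, Prmt3, Prmt5 and Prmt7, the 4 higher genes of the family with the most members called higher. The 250 bases upstream of the RefSeq start (GRCm38.p6, not the build of the junctions) are given 5′ to 3′ on the strand of the gene. Capitals mark CACGTG and CCAAT on either strand (ATTGG is its reverse).
Prmt1 at chr7:44986421-44986670 (minus): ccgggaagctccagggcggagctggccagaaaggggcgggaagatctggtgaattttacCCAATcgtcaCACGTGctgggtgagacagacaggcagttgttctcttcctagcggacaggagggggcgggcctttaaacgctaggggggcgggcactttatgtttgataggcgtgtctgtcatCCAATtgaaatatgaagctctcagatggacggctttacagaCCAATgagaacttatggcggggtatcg
Prmt3 at chr7:49778108-49778357 (plus): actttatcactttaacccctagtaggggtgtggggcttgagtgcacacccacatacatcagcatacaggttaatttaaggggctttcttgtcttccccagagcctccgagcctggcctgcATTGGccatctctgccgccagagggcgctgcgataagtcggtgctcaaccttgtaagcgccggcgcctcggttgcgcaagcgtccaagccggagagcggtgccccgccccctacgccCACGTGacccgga
Prmt5 at chr14:54517471-54517720 (minus): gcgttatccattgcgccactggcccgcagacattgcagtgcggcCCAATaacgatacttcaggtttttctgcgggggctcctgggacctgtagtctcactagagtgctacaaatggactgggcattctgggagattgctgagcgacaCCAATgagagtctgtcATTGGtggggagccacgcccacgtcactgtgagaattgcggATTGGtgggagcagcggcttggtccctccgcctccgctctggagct
Prmt7 at chr8:106210804-106211053 (plus): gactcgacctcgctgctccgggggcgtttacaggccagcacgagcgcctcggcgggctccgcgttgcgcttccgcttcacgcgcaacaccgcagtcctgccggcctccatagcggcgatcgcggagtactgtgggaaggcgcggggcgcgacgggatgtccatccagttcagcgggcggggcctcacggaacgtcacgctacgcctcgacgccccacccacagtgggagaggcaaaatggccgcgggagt

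The Prmt1 stretch held 1 CACGTG and 3 CCAAT, that of Prmt3 1 of each, and that of Prmt5 4 CCAAT and 0 CACGTG. That of Prmt7, the gene with the highest ratio of the 4, held neither; the 50 bases after this start were not found in a GENCODE M21 transcript of Prmt7. RefSeq windows of 300 bases, 250 before and 50 after a start, were at hand for 44 members, with 57 starts. In 46 of these 57 windows the 50 bases after the start were found in a GENCODE M21 transcript of the gene. All 57 were kept in the member windows. CACGTG, which is its own reverse complement, stood in 2 of the 13 windows of genes called higher (15.4%) and in 3 of the 17 of genes called lower (17.6%), against 7.15% of all 32851 windows. CCAAT on either strand stood in 9 of 13 windows of higher genes (69.2%), 6 of 17 of lower genes (35.3%) and 37.4% of all. The 13 windows came from only 8 genes and the 17 from 13 genes, so they are not independent. Kmt5a had 3 of the windows of higher genes, each with CCAAT, and Kdm2b had 4. Ehmt2 had 2 of those of lower genes, both with CACGTG. Kdm6b had no window. The GC box GGGCGG, on either strand, stood in 68.4% of member windows and 35.7% of all. Member windows were also richer in G and C, with a median of 62.7% against 52.7% in all windows. Their median count of CG was 27, against 7. The part of base composition in the GC box difference was not tested. These are counts of letters in short windows and say nothing of binding.

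The 2 amine oxidase demethylases act on H3 lysine 4. Kdm1a (LSD1) had 560 stimulated reads and 336 mock reads, a ratio of 1.43 (1.24 to 1.64). Kdm1b (LSD2) had 73 and 121, a ratio of 0.516 (0.381 to 0.696), near the limit on the other side. Of 8 measured genes that recruit or accompany LSD1, 2 were higher and 4 lower. The extremes were Gfi1, a transcriptional repressor of blood cells, with 245 stimulated and 20 mock reads, a ratio of 10.5, and Phf21a, a reader of unmethylated H3 lysine 4, with 63 and 288, 5.34-fold lower. Zmym2, a zinc finger partner and the most read, had 134 and 360 and was 3.14-fold lower.

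The KDM2 pair, which act on H3 lysine 36 and bind unmethylated CpG, split. Kdm2b had 414 stimulated reads and 136 mock reads, a ratio of 2.60 (2.14 to 3.18), with all 15 junctions of at least 10 reads higher. Kdm2a had 137 and 268 and was 2.29-fold lower (1.85 to 2.83). Kdm2a kept its direction but lost its call under both of the scalings named above and with its most-read junction alone, as Kdm2b did with its most-read junction alone. Both genes have internal starts that give a short form without the JmjC domain. At the acceptor where these starts join, the internal start took 6 of 16 Kdm2b reads in the stimulated library and 0 of 5 in the mock library, and 6 of 14 Kdm2a reads in the stimulated library and 9 of 28 in the mock library, too few to compare.

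The KDM3 enzymes remove H3 lysine 9 methylation. Kdm3a had 242 stimulated reads and 474 mock reads, 2.29-fold lower (1.96 to 2.68), a call lost under those scalings. Kdm3b had 278 and 393, a ratio of 0.605 (0.517 to 0.707). Of the KDM4 enzymes, which act on H3 lysine 9 and 36, none was called. Kdm4a had 242 and 219 reads, a ratio of 0.945, Kdm4b 87 and 119, a ratio of 0.625, and Kdm4c 64 and 102, a ratio of 0.537. Kdm4d had no named junction.

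None of the 4 KDM5 genes, which erase H3 lysine 4 methylation, was called, although 3 intervals excluded 1. Kdm5c had 320 stimulated reads and 202 mock reads, a ratio of 1.36 (1.13 to 1.62). Kdm5d, its Y-linked homolog, had 135 and 130, a ratio of 0.888. Kdm5b had 249 and 256, a ratio of 0.832, and Kdm5a 191 and 289, a ratio of 0.565. With scaling by total reads, the Kdm5c interval thus lay above 1, that of Kdm5d held 1, and those of Kdm5b and Kdm5a lay below 1. The log2 ratio of Kdm5b, −0.27, became −0.03 with the trimmed mean of M values and −0.04 with the median of ratios. That of Kdm5a, −0.82, became −0.58 and −0.60. Kdm7a, which acts on H3 lysine 9 and 27, had 129 stimulated reads and 201 mock reads, a ratio of 0.549.

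Members whose best known substrate is another protein, or is unsure, went both ways too. Setd4 had 32 stimulated reads and 7 mock reads, a ratio of 3.91 (1.70 to 10.5), with the fewest reads of the 50 genes. Setd3, the actin histidine methyltransferase, had 13 and 35, 3.15-fold lower (1.62 to 6.48), a call lost with its most-read junction alone. Setd6, which methylates the NF-kappaB subunit RelA, had 43 and 23, a ratio of 1.60 (0.943 to 2.78). Nsdhl had 11 and 35 and was 3.72-fold lower (1.85 to 8.12), and Kdm8, a JmjC protein, had 1 and 9 reads, under the minimum.

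Single junctions were also compared within genes. Of 22 called members with at least 2 junctions of at least 10 reads, 18 had all such junctions on the side of the call. The calls were made from sums of these same junctions, so this likeness is in part given by the rule. It was not set beside that of all called genes. For 40 members with at least 8 named junctions and 100 reads, the upstream and the downstream junctions were summed apart. The intervals of both sums were apart in 2 of the 40 (5.0%), against 268 of 3418 genes in all (7.84%). These were Kdm4a, with 135 stimulated and 162 mock reads upstream and 99 and 51 downstream, and Setd1a, with 107 and 99 upstream and 201 and 105 downstream. For Setd1a, 12 of the 20 named junctions also fit Gm49388, and its 2 parts were not summed without them. The log2 ratios of Kdm4a were −0.49 upstream and 0.73 downstream, so its value near 1 over the whole gene joins parts on opposite sides of 1. In Kdm6b the parts had 3.71 and 3.94, in Dot1l 2.56 and 2.21 and in Nsd3 −1.86 and −2.08.

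**Figure D4:**
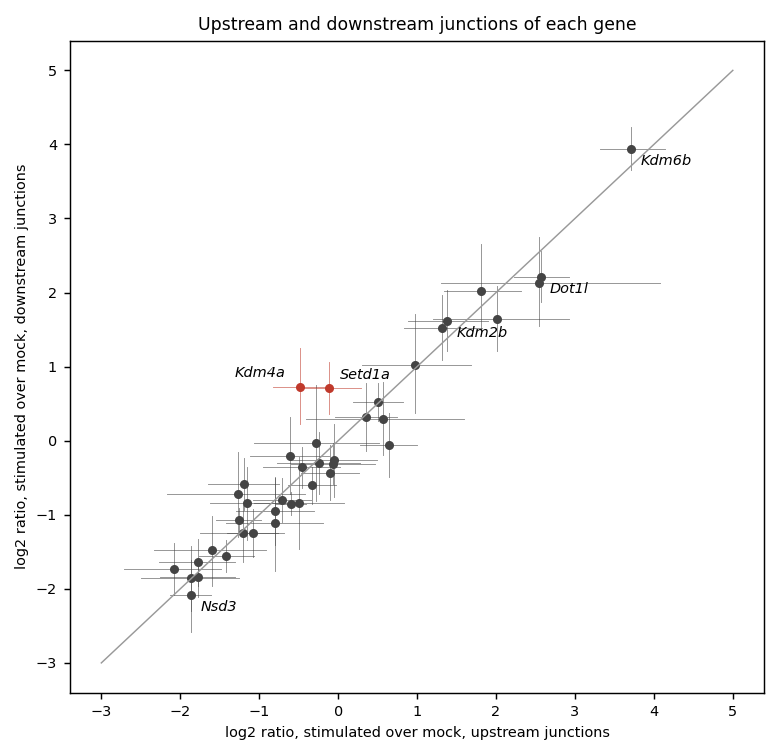
Log2 ratio, stimulated over mock, of the upstream junctions (x axis) and the downstream junctions (y axis) of 40 members, with exact 95% intervals; the line marks equal values. Most points lie along the line, and Kdm4a and Setd1a (red) lie above it with intervals apart. Of the 20 named junctions of Setd1a, 12 also fit another gene.

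Alternative use of splice sites was examined where a donor or acceptor was shared by several junctions with 20 or more reads in both libraries. None of 41 such sites, in 15 members, had a junction share that differed by at least 20 percentage points with intervals apart, where 1.56% of 4283 sites of all genes did. At the Kdm1a acceptor at position 136133120 of chr4 (minus strand), which 2 donors share, the nearer donor gave 18 of 29 reads in the stimulated library (62.1%, 42.3 to 79.3) and 9 of 21 in the mock library (42.9%, 21.8 to 66.0). In Prmt1, below that minimum, skipping of the exon after the first shared donor took 47 of 55 stimulated reads (85.5%, 73.3 to 93.5) and 11 of 14 mock reads (78.6%, 49.2 to 95.3). Kdm6b, Kdm4a and Setd1a were among the members with no site to compare.

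Other methyltransferases and demethylases, outside the symbols of the rule, showed both directions too. Of 11 measured methyltransferases of other families, Carm1 among them, 3 were higher and 2 lower. Smyd2, which methylates histones and p53, had 142 stimulated reads and 11 mock reads, a ratio of 11.0 (5.99 to 22.6), the highest of the list. Prdm10, of the PRDM family, was the lowest, 4.24-fold lower, and Ash1l, an H3K36 enzyme with the most reads, had 258 and 265. Of 10 measured demethylase relatives 1 was higher, the nucleolar oxygenase Riox2, with 73 and 23 reads and a ratio of 2.71, and 3 were lower. Hspbap1, a JmjC protein, was the lowest of these, 2.89-fold lower, and Phf2, a JmjC protein with the most reads, had 249 and 341.

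Genes listed with the supply of the cosubstrates were set beside them. S-adenosylmethionine is the methyl donor of every methyltransferase here. Of 9 measured genes listed with its cycle, 5 were higher and 1 lower, where 17.1% and 25.1% of all measured genes were. The 5 include Ahcyl1 and Ahcyl2, which are relatives of the hydrolase Ahcy and not that enzyme itself. Ahcy had no named junction. Mtap, which salvages methionine, had 235 stimulated and 23 mock reads, a ratio of 8.74, the highest. Mat2b, the regulatory subunit of the enzyme that makes the donor, had 110 and 288, 3.06-fold lower, while the catalytic subunit Mat2a had 232 and 42, a ratio of 4.72 (3.39 to 6.73). Ahcyl1, with the most reads, had 584 and 245, a ratio of 2.04. JmjC enzymes use 2-oxoglutarate, and release succinate. Of 12 measured genes that make or consume 2-oxoglutarate, or act on succinate or fumarate, 1 was higher and 2 were lower. Idh3a, a citric acid cycle dehydrogenase, had 359 and 121, a ratio of 2.54, D2hgdh, which returns 2-hydroxyglutarate to 2-oxoglutarate, had 2 and 20, 11.7-fold lower (2.84 to 103), and Ogdh, the most read, had 687 and 680, a ratio of 0.864.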

How the data were processed

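Each library's table lists splice junctions, and its score column holds counts of reads per junction, as the authors deposited them, raw and not normalized. In the submitters' processing notes stand TopHat, a spliced-read aligner, the assembler Cufflinks and the build mm9; for their versions, settings and filters the sources used here give nothing. Reads within exons are not counted, so a gene with few junctions has a less precise value.

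The annotation (GENCODE M21) is on GRCm38, and no coordinate was converted. A junction took a gene's name when chromosome, strand and intron length equalled those of an annotated intron and at least 1 other junction of the same transcript lay at the same spacing. Of 124183 junctions 95529 (76.9%) were named, with 95.9% of stimulated and 95.7% of mock reads; 227 fitted several genes equally and were left out. With chromosomes exchanged as decoys in 20 rotations, 6.4 were named on average. Strand came from the deposited junctions. The naming and the calls were tested on simulated data.

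Counts were summed per gene and scaled by total junction reads. The labels name no separate cultures beyond the 4 pooled spleens. Against a library with 0 reads, a ratio was computed against 3 reads (2.24 per 1000000 stimulated, 2.61 mock); reads copied by PCR are not independent, so intervals and this limit cover counting error only. edgeR 4.0.16 gave the trimmed mean of M values used in an alternative scaling. The other choices tried were read minimums, the value of a gene, the members, the fold and the interval.

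The members and lists were chosen with earlier results of these data known. Every member with 20 reads may be named, and of each other list the genes with the highest and lowest ratio and the most reads. Mat2a, Ahcy, Ahcyl2, Carm1, the Nsd3 forms, the Prmt1 exon and the internal starts were named outside that rule, after their values were seen.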

Additional observations from a re-analysis of the deposited data

How the results depend on the processing

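The count of members called higher was 9 and lay between 7 and 10 under the other scalings, read minimums, ways to value a gene, member lists and intervals, and the count called lower was 16 and lay between 13 and 17. With a fold of 4 in place of 2, 3 members were called higher (Dot1l, Kdm6b and Prmt7) and 1 lower (Kmt5c). Scaling by the trimmed mean of M values or by the median of ratios put the point of no change at −0.24 or −0.23 on the log2 scale. Either left 13 members lower and 9 higher. Shares of all genes called were computed under the main setting only. Whether members and all genes differ in share under another setting was thus not tested. The side of 1 on which intervals lay was not counted again under the other scalings. The median log2 ratio of −0.52 ranged from −0.62 to −0.28. Leaving out junctions that fit another gene, chosen after seeing the data, changed no count. Apart from the fold of 4, 19 of the 25 calls were kept under every setting in which the gene was measured; Kdm2a, Kdm3a, Kmt2d, Kdm2b, Kmt5a and Setd3 lost theirs under at least 1, the last 3 by a change in how a gene was valued. Splice sites counted were 0 of 41, 0 of 113 with at least 10 reads, 0 of 5 with at least 50 and 0 of 41 at a 10-point difference. Junctions of 1 gene varied 2.02 times as much as counting alone gives. No paired analysis was possible because each group has 1 library, and for the same reason no replicate could be left out.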

Other observations

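Some junctions had no name although they shared a splice site with a named junction of a member. There were 183 of these in 41 genes, with 348 stimulated reads and 191 mock reads. The most read was on chr11 at 69222284-69222793 (minus strand, mm9), at the upstream end of Kdm6b, with 113 stimulated reads and 1 mock read. It shares its acceptor with the first named junction of Kdm6b, of 4751 bases, which had 2 stimulated reads and 0 mock reads. A shorter one further along Kdm6b, at 69215487-69215577, had 28 stimulated reads and 1 mock read. In Kmt2c the direction was the other, with 7 stimulated reads and 30 mock reads on chr5 at 24799067-24800374 (minus). These reads are in none of the values of Kdm6b and Kmt2c.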
